A study of Arabidopsis thaliana with 12 samples.

Results

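Leaf ageing in Col, the Columbia ecotype of Arabidopsis thaliana, was followed by setting leaves at the stage labelled DAE28 against leaves at DAE14, with 3 arrays at each stage. These are the 6 Col arrays of the 12 in the series, chosen by the ecotype and stage given in the labels. The Col DAE28 and Col DAE14 groups carry no mutation or treatment in the labels, and both hold the third and the fourth leaf of plants kept on soil in days of 16 h light and 8 h dark, taken 5 h after the lights came on. The labels give 23 and 37 days on soil without tying either to a stage, and they do not spell out DAE. The other 6 arrays hold gvs1-1 at DAE28 and at DAE14, grown the same way; the labels do not name the locus of this allele. Those arrays entered the fit to estimate the spread, took part in the choice of probes and served for 1 comparison at the end. The labels do not say whether the 3 samples of a group came from separate plants, so p-values measure the spread between these samples, which may be technical.

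Leaf senescence is the last, regulated phase of a leaf's life. Chloroplasts are dismantled, chlorophyll is degraded, and proteins, lipids and nucleic acids are broken down so that nitrogen, phosphorus and sugars can be moved to growing organs and seeds. NAC and WRKY transcription factors drive much of this programme in Arabidopsis; abscisic acid, ethylene, jasmonate and salicylic acid promote it, and cytokinin delays it.

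Every level below is a log2 signal relative to the 75th percentile of its array, and every change is DAE28 minus DAE14 on that log2 scale, ± SE of the limma fit with n = 3 arrays per stage. A gene is said to have risen or fallen when its two-sided Benjamini-Hochberg adjusted p in that fit was under 0.05. The 75th percentile of the raw processed signal lay between 1435 and 1567 on the DAE28 arrays and between 700.0 and 888 on the DAE14 arrays. Spots well above background made up 70.3% to 72.5% at DAE28 and 63.8% to 67.5% at DAE14. The levels are relative within an array, so a change in total RNA per leaf is not seen, and in whole leaves fewer cells of a type and less RNA per cell cannot be told apart. Across genes, which are not independent replicates, the arrays correlated at 0.972 to 0.985 within DAE28, at 0.986 to 0.992 within DAE14 and at 0.787 to 0.822 between the stages. Col DAE28 replicate 1 shared slide 1 with the 3 Col DAE14 arrays, while Col DAE28 replicates 2 and 3 lay on slide 2, which was scanned on another day. Where slide was added to the fit as a block, the Col age change therefore rests on DAE28 replicate 1 alone against the DAE14 arrays.

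Ageing changed the larger part of the measured transcriptome. Of 19152 genes tested, 6843 rose (35.7%) and 6944 fell (36.3%), so 72.0% changed in one direction or the other. At least 2-fold changes were found in 3400 genes that rose (17.8%) and 4323 that fell (22.6%), or 40.3% of genes together. The median change over all genes was 0.01. Changes of at least 16-fold were about as frequent upwards, with 488 genes, as downwards, with 512; those of at least 64-fold numbered 148 upwards and 108 downwards. The 3 arrays of one stage did not overlap with the 3 of the other in 75.5% of genes. With this background, a share of called members in a gene group is read by its direction, and the median is given beside most counts. Leaving the background correction to normexp, which shrinks changes of dim probes, brought the genes that fell at least 2-fold to 2758, and keeping dim probes without a filter brought them to 8285.

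**Figure D1:**
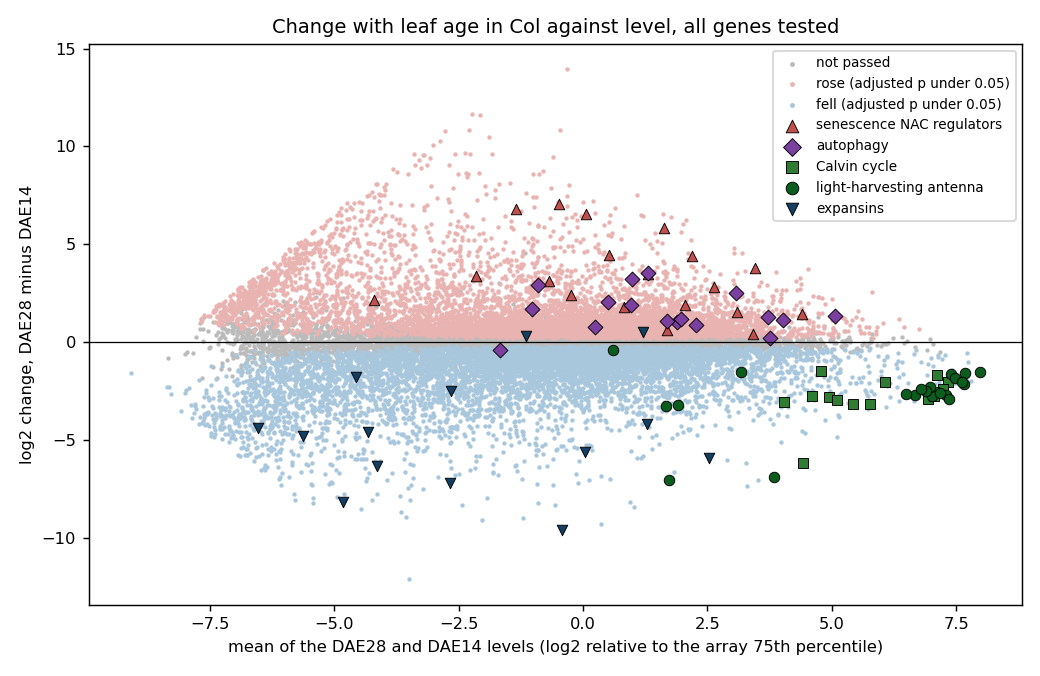
Change with age (vertical axis, log2, DAE28 minus DAE14) against the mean of the 2 stage means (horizontal axis, log2 relative to the array 75th percentile) for the 19152 genes tested; each point is a gene and the large symbols are members of 5 lists. The NAC regulators and most autophagy genes lie above 0, the antenna and Calvin cycle genes lie below 0 mostly among the brightest probes, and most expansins lie below 0 among dimmer ones; under quantile normalization 16 of 21 antenna genes and 14 of 15 Calvin cycle genes still fell, with smaller changes.

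The established markers of senescence separated the stages on every array. SAG12, a cysteine protease gene that serves as the classical senescence marker, had levels of 6.81, 6.61 and 6.50 at DAE28 and of -6.19, -7.59 and -8.10 at DAE14. No DAE14 spot of it was well above background, so its rise is a bound of at least 6093-fold (limma adjusted p = 2.6e-06). NAP, a NAC factor that promotes senescence, had levels of 5.31, 5.30 and 5.42 at DAE28 and of 1.99, 1.39 and 1.34 at DAE14. All 3 DAE28 arrays lay well above all 3 DAE14 arrays for both genes, and the DAE28 values were the more tightly grouped. ORE1, another NAC regulator of leaf senescence, had levels of 4.62, 3.97 and 4.55 at DAE28 and of 1.38, -0.12 and -1.28 at DAE14, so that its 3 DAE14 arrays were spread over more than 2 log2 units. It rose by 4.39 ± 0.62 (limma adjusted p = 1.0e-04).

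RBCS1A, a small subunit gene of Rubisco, was still among the brightest probes in aged leaves, with levels of 6.34, 6.20 and 6.39 at DAE28 against 8.29, 8.52 and 8.30 at DAE14. It fell by 2.06 ± 0.11, and its other probes fell by 2.95 on average. CAB1, a light-harvesting antenna gene, had levels of 7.41, 7.13 and 7.11 at DAE28 and of 8.68, 8.89 and 8.63 at DAE14, a change of -1.51 ± 0.16 that became 0.0072 under quantile normalization, which pulls the brightest probes of all arrays together. Both genes have near-identical copies, and their probes may detect several of them.

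WRKY53, an early regulator of senescence, and PR1, a marker of salicylic acid responses, were less clear. WRKY53 had levels of 0.40, -0.06 and -0.92 at DAE28 and of -1.69, -1.49 and -1.5 at DAE14. The stages did not overlap, and the change of 1.36 ± 0.53 passed narrowly (limma adjusted p = 0.041), but it was lost without any one of 5 of the 6 arrays, that is without DAE28 replicate 1 (1.06), DAE28 replicate 2 (1.3), DAE14 replicate 1 (1.3), DAE14 replicate 2 (1.39) or DAE14 replicate 3 (1.39). PR1 did not pass, with a change of 1.87 ± 1.25 (limma adjusted p = 0.20). Its DAE28 levels of 2.85, 3.16 and 1.15 overlapped with the DAE14 levels of -0.41, 1.83 and 0.14.

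**Figure D2:**
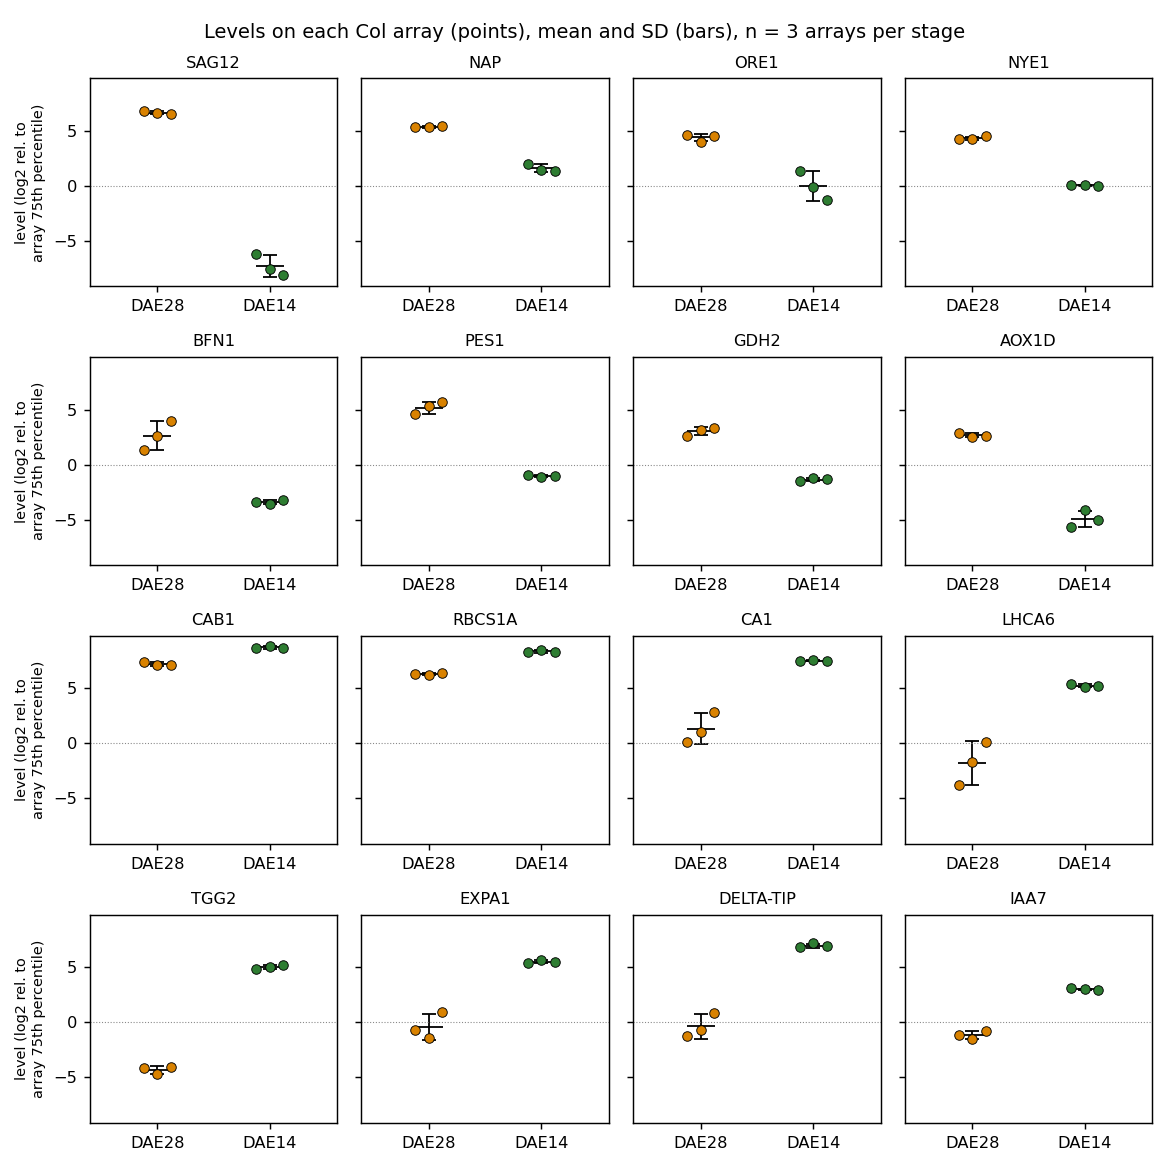
Levels of 16 genes on each Col array (points; vertical axis, log2 relative to the array 75th percentile), with the mean and SD of the 3 arrays per stage (bars). The genes shown were chosen from a fixed panel and from the most changed genes. DAE28 and DAE14 do not overlap in any of them, nor in 75.5% of all genes tested. PR1, a panel gene whose stages overlap, is not shown. CAB1 and RBCS1A moved by the smallest amounts among those that fell, and CAB1 did not fall under quantile normalization.

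The largest rises among genes measured at both stages were led by SRG1, PYD4 and AOX1D. SRG1, a gene named for its induction in senescence, had levels of 2.88, 3.42 and 3.94 at DAE28 against -5.19, -4.73 and -5.61 at DAE14. PYD4, named for pyrimidine degradation, had levels of 3.15, 3.94 and 4.07 at DAE28 against -3.82, -3.89 and -5.15 at DAE14. AOX1D, a mitochondrial alternative oxidase, stood at 2.88, 2.54 and 2.60 at DAE28 against -5.64, -4.14 and -5.06 at DAE14. The rises of these 3 genes, 8.59 ± 0.63, 8.01 ± 0.44 and 7.62 ± 0.70, were all over 10 times their SE. SAUR36, which promotes senescence although most SAUR genes are tied to growth, rose by 6.95 ± 0.37, and HAI1, a phosphatase that restrains abscisic acid signalling, by 6.92 ± 0.74.

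The strongest falls included a myrosinase and several wall proteins. TGG2, a myrosinase that hydrolyses glucosinolates, had levels of -4.14, -4.71 and -4.04 at DAE28 and of 4.82, 5.01 and 5.24 at DAE14. FLA2, a fasciclin-like arabinogalactan protein of the wall, had levels of -5.0, -4.69 and -4.51 at DAE28 and of 3.55, 3.63 and 3.59 at DAE14. They fell by 9.32 ± 0.34 and 8.32 ± 0.41. PRP4, a proline-rich wall protein, had levels of -4.94, -3.35 and -1.12 at DAE28 and of 4.95, 5.2 and 4.89 at DAE14, so the fall of 8.15 ± 0.71 came with a wide spread among aged leaves. GASA6, of a gibberellin-regulated peptide family, fell by 7.13 ± 0.48, and ELP by 7.06 ± 0.33.

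Some genes crossed the detection limit. Not well above background on any DAE14 array and well above it on all 3 DAE28 arrays were 958 genes (5.00%), and the reverse held for 215 genes (1.12%). The share of spots above background was itself higher at DAE28. Of the 958 genes 797 passed the test, as did all 215 of the other set. Over all genes tested 35.7% rose and 36.3% fell. Both sets were defined on the same arrays that were tested, so these counts are no separate support. The bound was at least 2-fold in 451 of the 958, with a median of 1.87, and in all 215 of the other set. The bounds were at least 10-fold in 155 of the 958 and in 114 of the 215. After SAG12 the highest bounds belonged to KTI1, a Kunitz protease inhibitor (at least 831-fold), CCD8, a carotenoid cleavage dioxygenase of strigolactone synthesis (at least 757-fold), GLYI7, a glyoxalase I homologue (at least 646-fold), and DIN2, a dark-inducible beta-glucosidase (at least 546-fold). KTI1 had levels of 2.32, 4.38 and 4.48 at DAE28, replicate 1 being the lowest. In the other direction EXPB1, an expansin, was at least 113-fold lower at DAE28, SAUR26 at least 75.4-fold, XTH8, a xyloglucan-modifying enzyme, at least 66.6-fold, ADS1, a fatty acid desaturase, at least 55.3-fold, and PRA1.F1, of a Rab acceptor family, at least 53.9-fold. Each of these genes was at 0 of 3 arrays above background at one stage and at 3 of 3 at the other.

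Among regulators, the senescence NAC factors stood out by direction. All 19 measured genes of this list rose, with a median of 3.12, against a median of 0.01 over all genes tested, and 17 of them rose at least 2-fold. NAC047 had levels of 2.91, 2.89 and 3.38 at DAE28 and of -3.95, -4.00 and -4.11 at DAE14. NAC055, a stress-responsive NAC, had 1.90, 1.33 and 2.87 at DAE28 and -3.92, -4.49 and -5.82 at DAE14. NAC087 rose by 6.55 ± 0.33. The 3 genes did not overlap between stages, as was the case for 75.5% of all genes tested. The other probes of NAC047 gave 4.09 in place of its 7.07 ± 0.31. This list holds genes picked for their known part in senescence, and its direction is therefore not independent evidence.

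The NAC family as a whole leaned the same way less uniformly. Of 63 measured NAC genes 45 rose and 13 fell, with a median of 1.43; with normexp background correction 40 rose and 1 fell. VND7, a switch for xylem vessel differentiation, fell by 2.05 ± 0.20, a call lost under normexp, where the change was -0.43. The senescence WRKY list had 12 rises and 0 falls in 17 genes, with a median of 2.43. WRKY45 had levels of 2.3, 2.38 and 2.55 at DAE28 against -2.05, -2.36 and -2.35 at DAE14, and rose by 4.67 ± 0.15. WRKY8 rose by 4.22 ± 0.37. Over the WRKY family 35 of 57 rose and 7 fell, with a median of 1.03.

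Other transcription factor families differed among themselves. Over all genes tested, 35.7% rose and 36.3% fell. Of 74 MYB genes 34 rose and 26 fell (20 and 16 under normexp), with a median of 0.51, MYB112 at 6.69 ± 0.37 and PAP1, an activator of anthocyanin synthesis, at 6.59 ± 0.44. FLP, which ends the divisions of the stomatal lineage, fell by 2.88 ± 0.18. Of 18 heat stress factors 10 rose and 1 fell, with a median of 0.53, HSFA7A at 2.4 ± 0.30 and HSFB4 at -2.36 ± 0.18. Of 20 genes that carry a bHLH name 4 rose and 10 fell, with a median of -0.70 (-0.11 under normexp); many bHLH factors go by other names and are not counted there. Of 17 auxin response factors 8 rose and 5 fell, and their median of -0.13 turned to 0.23 under quantile normalization and to 0.05 under median centring.

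**Figure D3:**
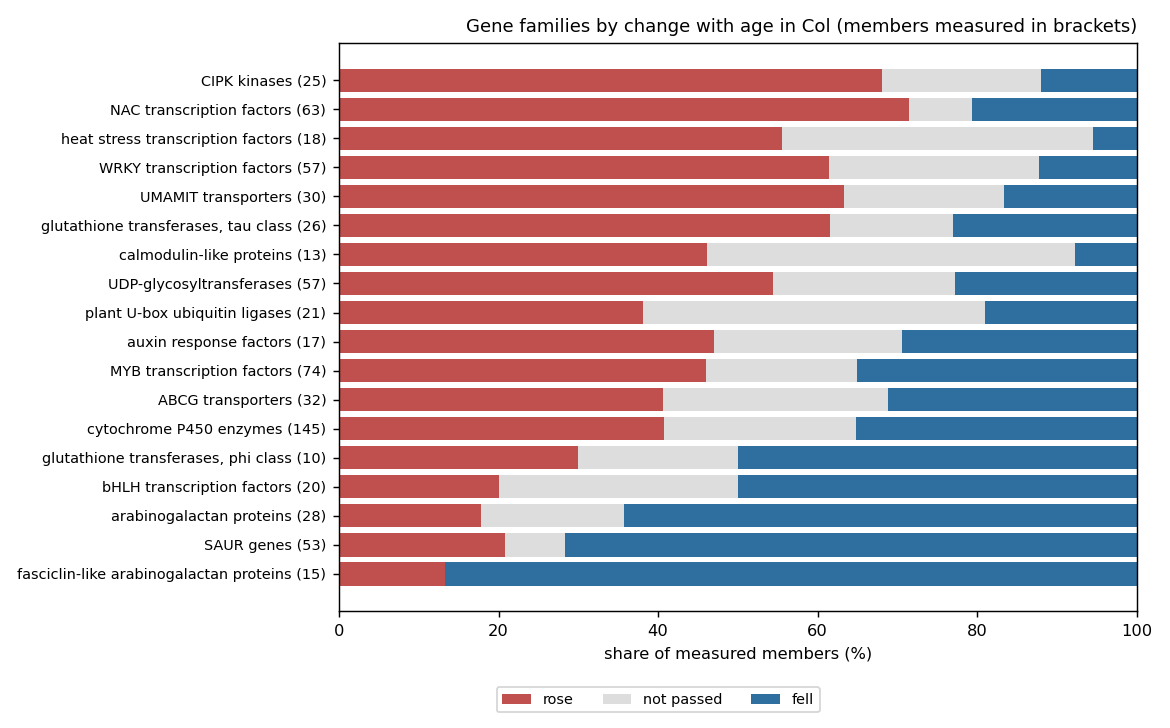
Share of the measured members (horizontal axis, %) that rose, did not pass or fell with age in Col, for 18 gene families defined by their symbols, with the number measured in brackets. Rises prevail among CIPK kinases (17 of 25) and NAC factors (45 of 63), and falls among SAUR genes (38 of 53) and fasciclin-like arabinogalactan proteins (13 of 15).

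Most chlorophyll breakdown genes rose, while most genes of the antenna that holds chlorophyll fell. Of 13 measured genes of chlorophyll breakdown 8 rose and 4 fell, with a median of 2.17. NYE1 and NYE2, which remove magnesium from chlorophyll a and start its degradation, led the rises. NYE1 had levels of 4.27, 4.22 and 4.47 at DAE28 against 0.06, 0.09 and -0.02 at DAE14, and NYE2 had 3.95, 3.98 and 4.26 at DAE28 against -2.67, -2.79 and -2.92 at DAE14. They rose by 4.28 ± 0.18 and 6.86 ± 0.31, and their arrays were tightly grouped at both stages. MES16, an esterase acting on later breakdown products, rose by 3.31 ± 0.17. CLH1, a chlorophyllase, fell by 2.52 ± 0.26; this enzyme is not required for breakdown in senescing leaves of Arabidopsis.

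Of 21 light-harvesting antenna genes 20 fell and 0 rose, with a median of -2.52. Values differed widely within the list: LHCA6 had levels of -3.82, -1.68 and 0.15 at DAE28 against 5.40, 5.09 and 5.24 at DAE14, and LHCB2.3 had -0.94, -0.18 and 2.33 at DAE28 against 7.20, 7.36 and 7.29 at DAE14. In both genes the DAE14 arrays were within 0.4 of one another and the aged leaves were not. LHCB7 did not pass, at -0.42 ± 0.24. With slide as a block, which leaves DAE28 replicate 1 alone against DAE14, the fall was larger, at -0.93, and no call is drawn from it. With scan day as a block LHCB7 was at -0.72 and passed (limma adjusted p = 0.035). All 15 genes of the Calvin cycle list fell, with a median of -2.78. The list includes CA1, a chloroplast carbonic anhydrase and not an enzyme of the cycle itself. CA1 had levels of 0.16, 1.02 and 2.86 at DAE28 and of 7.5, 7.55 and 7.47 at DAE14. GAPB and FBA1, enzymes of the cycle, fell by 3.17 ± 0.23 and 3.17 ± 0.20. All 12 photorespiration genes fell, with a median of -2.17, including SHM1 and the glycine decarboxylase subunits GDCH and GLDP1 (-3.10 ± 0.21, -2.99 ± 0.26 and -2.83 ± 0.23).

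The size of these falls depends on how bright probes are scaled. Under quantile normalization the antenna median was -0.94 and the Calvin cycle median -1.27, with 16 and 14 members falling, whereas median centring gave -2.34 and -2.60 and normexp -2.55 and -2.83. Of 15 chloroplast and light regulators 2 rose and 11 fell, with a median of -0.83 (-0.73 under quantile normalization). The plastid sigma factors SIG4 and SIG6, which direct transcription in the plastid, fell by 2.55 ± 0.28 and 2.36 ± 0.16. HY5, a light-signalling bZIP factor, rose instead: its levels were 0.28, 0.56 and 0.60 at DAE28 and -1.31, -1.71 and -1.82 at DAE14, a change of 2.09 ± 0.18. Of 13 plastid protease genes 3 rose and 8 fell, with a median of -0.76. ERD1, a Clp chaperone subunit, rose by 2.28 ± 0.11, and the Deg protease gene DEG5 fell by 2.53 ± 0.20.

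Genes of protein breakdown outside the plastid divided by route. Autophagy genes, which deliver cell contents to the vacuole, rose in 15 of 17 cases with 0 falls and a median of 1.28. ATG8H, a membrane-bound tag of the autophagosome, had levels of 2.36, 3.03 and 3.83 at DAE28 and of -0.41, -0.58 and -0.42 at DAE14. ATG7, the activating enzyme of the conjugation system, had 2.12, 2.45 and 3.22 at DAE28 and -0.68, -0.53 and -0.63 at DAE14. Both genes were lowest in DAE28 replicate 1 and highest in replicate 3. They had no overlap with DAE14, like 75.5% of all genes tested. ATG8B rose by 2.94 ± 0.17, and ATG10 did not pass at -0.41 ± 0.18.

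Of 14 vacuolar and cell death proteases 8 rose and 2 fell, with a median of 1.38. The rises besides SAG12 included MC9, a metacaspase (3.10 ± 0.41), BETA-VPE, a vacuolar processing enzyme (2.56 ± 0.35), and RD21B, a cysteine protease (1.79 ± 0.22). Both genes that fell, XCP2 by 4.84 ± 0.41 and XCP1 by 4.53 ± 0.54, are proteases of xylem vessels. The proteasome list hardly moved: of 23 genes of the 26S proteasome 5 rose and 2 fell, with a median of 0.01 and a range of -0.33 to 0.44, and the rises numbered 2 without DAE28 replicate 2 and 3 without DAE28 replicate 1. RPT2a, an ATPase subunit, was at 0.43 ± 0.11 and PAC1, a core subunit, at -0.33 ± 0.10, a call lost under quantile normalization, median centring and normexp, with slide as a block, on slide 1 or scan day 1 alone, and in the authors' deposited table. Cytosolic ribosome genes stayed within -0.58 and 0.26; 5 of 16 fell and 0 rose. Their median of -0.29 became 0.04 under quantile normalization, none fell under median centring, 3 rose and none fell with slide as a block, and 10, 1 and 1 fell without DAE28 replicate 1, 2 and 3.

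Nitrogen assimilation genes changed in both directions, as did all genes tested, of which 35.7% rose and 36.3% fell. Of 16 nitrogen assimilation genes 6 rose and 8 fell, with a median of -0.43 that turned to 0.12 under quantile normalization. GDH2, a mitochondrial glutamate dehydrogenase subunit, had levels of 2.61, 3.14 and 3.29 at DAE28 and of -1.51, -1.23 and -1.34 at DAE14. GLN1.3, a cytosolic glutamine synthetase, had 0.97, 1.25 and 1.1 at DAE28 and -2.38, -2.05 and -2.52 at DAE14. GDH2 and GLN1.3 rose by 4.37 ± 0.20 and 3.42 ± 0.16. GS2, the plastid glutamine synthetase, fell by 2.62 ± 0.17, and GLU1, a ferredoxin-dependent glutamate synthase, by 2.74 ± 0.13.

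Transport and catabolism of nitrogen compounds rose more uniformly. Of 13 nitrogen and metal transporters 9 rose and 3 fell, with a median of 1.48. BAC2, a mitochondrial carrier of basic amino acids, had levels of 3.42, 3.44 and 3.89 at DAE28 and of -3.57, -3.52 and -3.68 at DAE14. NRT1.5, which loads nitrate into the xylem, and YSL1, a transporter of metal chelates, rose by 1.90 ± 0.25 and 1.83 ± 0.13, while OPT3, of the oligopeptide transporter family, fell by 1.76 ± 0.19. In the UMAMIT family of amino acid exporters and related transporters, 19 of 30 rose and 5 fell, with a median of 0.92 (0.55 under normexp), UMAMIT45 at 3.62 ± 0.22 and UMAMIT13 at -2.34 ± 0.30. Of 14 genes of amino acid catabolism 11 rose and 1 fell, with a median of 0.98. LKR, which degrades lysine, had levels of 4.54, 4.11 and 4.63 at DAE28 and of -2.11, -1.92 and -2.07 at DAE14. The branched-chain aminotransferases parted, with BCAT-2 at 4.06 ± 0.38 and BCAT-1 at -1.49 ± 0.20.

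Of 6 measured genes of alternative respiration 4 rose and 1 fell, with a median of 1.40. AOX1A, the stress-induced alternative oxidase of many tissues, rose by 1.57 ± 0.13, much less than AOX1D, and NDA1, an internal alternative NADH dehydrogenase, fell by 2.12 ± 0.15. Antioxidant enzymes went down more often than up, with 1 rise and 6 falls among 12 and a median of -0.55, although 4 rose under quantile normalization. TAPX, the thylakoid ascorbate peroxidase, fell by 3.04 ± 0.27, CAT2, the peroxisomal catalase of photosynthetic leaves, by 1.85 ± 0.17, and APX1, the cytosolic peroxidase, rose by 0.42 ± 0.12, a call lost with slide as a block. The classes of glutathione transferases, enzymes of detoxification, differed. Of 10 phi-class genes 3 rose and 5 fell (3 fell under quantile normalization), with a median of -0.56. Of 26 tau-class genes 16 rose and 6 fell, with a median of 1.33 (0.74 under normexp), among them GSTU8 at 5.99 ± 1.05 and GSTU18 at -2.53 ± 0.18.

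Lipid genes turned in opposite directions. Of 15 genes of fatty acid breakdown and the glyoxylate cycle 14 rose and 0 fell, with a median of 1.33. PES1, an enzyme that esterifies phytol and fatty acids released from thylakoids, had levels of 4.59, 5.29 and 5.66 at DAE28 and of -0.92, -1.15 and -1.08 at DAE14. PES2, its homologue, rose by 4.86 ± 0.31 and ACX2, an acyl-CoA oxidase of peroxisomal beta-oxidation, by 2.22 ± 0.15. PCK1 did not pass, at 0.27 ± 0.22. Of 18 genes of fatty acid synthesis and wax 17 fell and 0 rose, with a median of -1.94. FAD8, a plastid desaturase, had levels of -3.77, -3.81 and -2.83 at DAE28 and of 1.86, 1.80 and 1.81 at DAE14. KCS1 and CER2, which elongate fatty acids for wax, fell by 3.63 ± 0.52 and 3.62 ± 0.38.

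Salvage of nucleic acids and phosphate rose in part. Of 15 genes 8 rose and 1 fell, with a median of 1.00. BFN1, a senescence-associated nuclease, had levels of 1.28, 2.62 and 3.95 at DAE28 and of -3.42, -3.62 and -3.22 at DAE14, so the aged arrays differed by over 2 log2 units among themselves and all exceeded the younger ones. PAP17, an acid phosphatase, had 5.49, 5.56 and 5.36 at DAE28 against 1.16, 1.02 and 0.57 at DAE14. The phosphate transporter PHT1;5 rose by 2.98 ± 0.22, and PHO1, which exports phosphate to the xylem, fell by 1.95 ± 0.17. Among 19 sugar transport and starvation genes 10 rose and 4 fell, with a median of 1.68. SUS3, a sucrose synthase, rose by 4.58 ± 0.28, and ESL1, a vacuolar sugar transporter homologue, by 3.74 ± 0.24. SUC2, which loads sucrose into the phloem, had levels of 2.53, 3.02 and 2.98 at DAE28 and of 3.81, 4.01 and 4.08 at DAE14, and SWEET17, a vacuolar fructose transporter, fell by 2.19 ± 0.23.

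**Figure D4:**
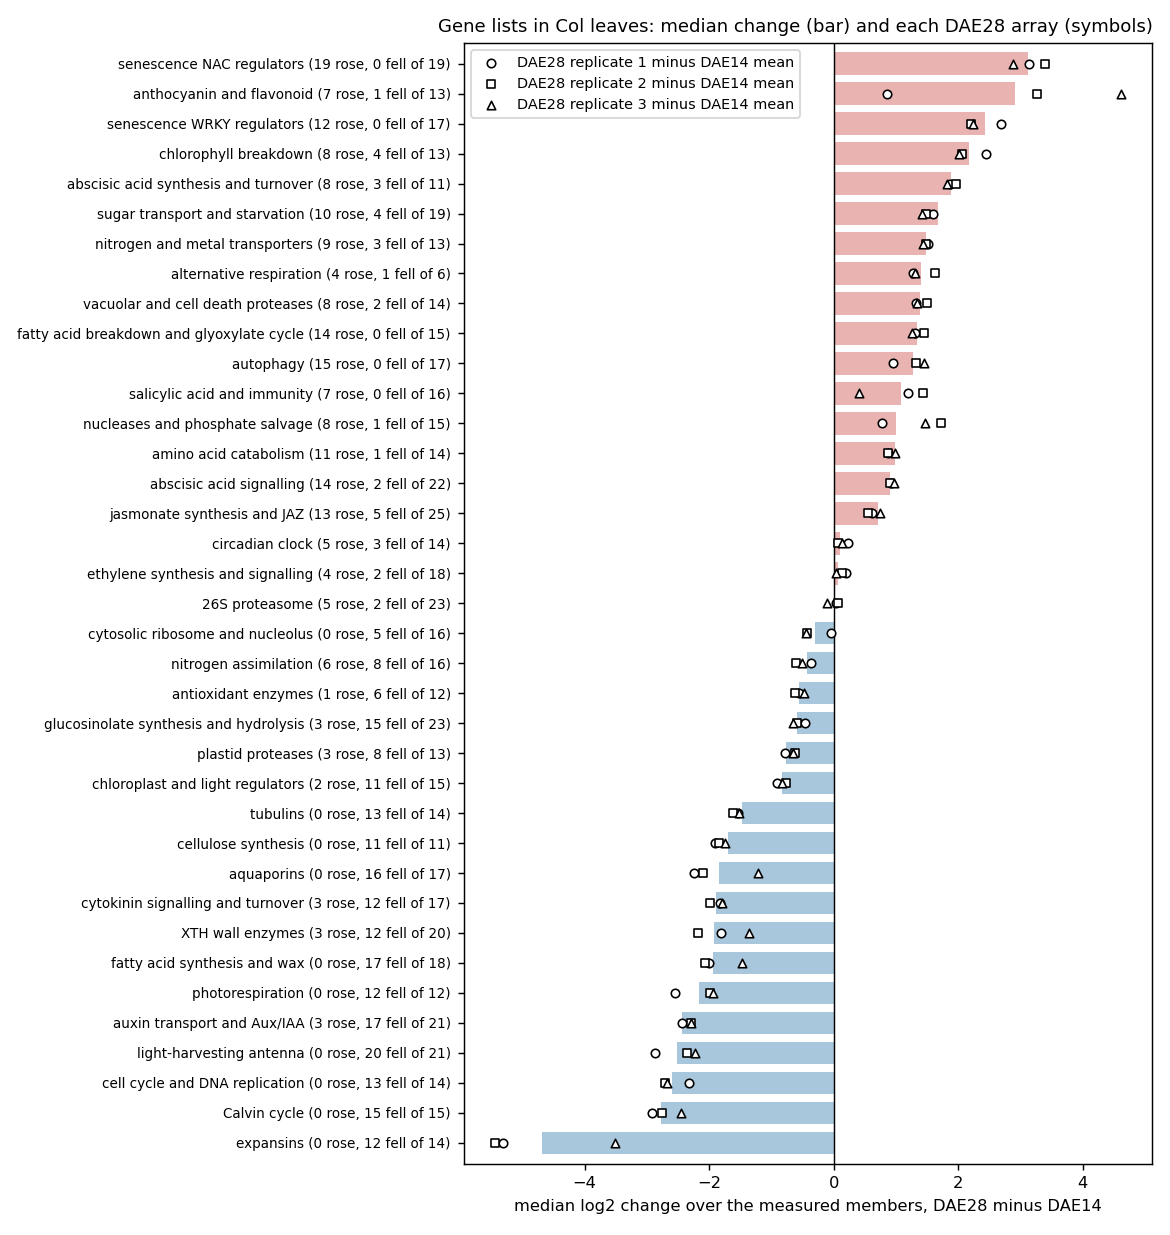
Median log2 change over the measured members of 37 gene lists (bars; horizontal axis, DAE28 minus DAE14) and the same median for each DAE28 array minus the DAE14 mean (symbols), with the members that rose and fell. The NAC list is highest at 3.12 and the expansins lowest at -4.69; the 3 arrays lie farthest apart in the anthocyanin and flavonoid list (0.86, 3.26 and 4.61), and the medians of nitrogen assimilation and of the cytosolic ribosome turn positive under quantile normalization.

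Hormone pathways differed in direction. For abscisic acid, 8 of 11 genes of synthesis and turnover rose and 3 fell, with a median of 1.88 (1.03 under normexp). The falls numbered 1 under quantile normalization, median centring or slide as a block, in the authors' deposited table, and without DAE28 replicate 2 or DAE28 replicate 3. Of 22 signalling genes 14 rose and 2 fell, with a median of 0.91. AAO3, the oxidase of the last step of synthesis, had levels of 2.48, 2.4 and 2.91 at DAE28 and of 0.18, 0.48 and 0.48 at DAE14. CYP707A2, which inactivates the hormone, rose as well (2.49 ± 0.23), and ABA2, a dehydrogenase of synthesis, fell by 1.68 ± 0.13. The 3 largest rises among signalling genes measured at both stages were those of phosphatases that restrain the pathway, with HAI2 at 3.97 ± 0.30 and HAB1 at 2.70 ± 0.18 beside HAI1. The receptor gene PYL4 fell by 2.54 ± 0.21. CIPK kinases, which act with calcium sensors, rose in 17 of 25 cases and fell in 3, with a median of 1.19, CIPK19 at 3.90 ± 0.39 and CIPK20 at -2.80 ± 0.19.

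Cytokinin and auxin genes fell. Of 17 cytokinin genes 3 rose and 12 fell, with a median of -1.90. ARR7 and ARR9, type-A response regulators induced by the hormone, fell by 4.2 ± 0.59 and 3.08 ± 0.32, and IPT3, a synthesis enzyme, had levels of -1.68, -1.60 and -0.62 at DAE28 and of 1.48, 1.53 and 1.5 at DAE14. CKX5, which degrades cytokinin, rose by 3.99 ± 0.37, and AHK3, the receptor that acts against leaf senescence, rose by 0.83 ± 0.10. Of 21 genes of auxin transport and the Aux/IAA repressors 3 rose and 17 fell, with a median of -2.44. IAA7 had levels of -1.13, -1.52 and -0.83 at DAE28 and of 3.07, 3.02 and 2.98 at DAE14, and IAA29 fell by 3.98 ± 0.47. IAA28 rose by 1.28 ± 0.18.

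The SAUR family, short-lived auxin-induced transcripts tied to cell expansion, had 11 rises and 38 falls in 53 genes and a median of -3.35. SAUR23 averaged -4.49 ± 1.42 at DAE28 and 1.79 ± 0.11 at DAE14 (SD, n = 3 each), against which the rise of SAUR36 described above was an exception. Family members share sequence, and their probes may not be fully specific. The medians of this family and of other groups with many dim probes were smaller after normexp (-1.43 for SAUR genes).

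Ethylene genes showed no lean, with 4 rises and 2 falls among 18 and a median of 0.06; 7 rose under median centring and 2 without DAE28 replicate 1. EIL1, a factor of the pathway, fell by 1.16 ± 0.12. Of 25 jasmonate genes 13 rose and 5 fell, with a median of 0.70, and 3 fell under quantile normalization. The JAZ repressors JAZ5 and JAZ10, which are induced by the hormone, rose by 3.23 ± 0.41 and 3.11 ± 0.57. Of 16 salicylic acid and immunity genes 7 rose and 0 fell, with a median of 1.09; 4 rose without DAE28 replicate 2 or with slide as a block. PBS3, an enzyme of salicylic acid synthesis, had levels of 3.06, 3.16 and 2.18 at DAE28 and of -0.71, 0.24 and -0.01 at DAE14. CBP60G, an activator of that synthesis, had 3.56, 3.52 and 2.56 at DAE28 and 0.40, 1.25 and 1.12 at DAE14. Both were lowest in DAE28 replicate 3 among the aged leaves, as was PR1.

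Growth genes fell across wall, water and division functions. Expansins, which loosen the wall, fell in 12 of 14 cases with 0 rises and a median of -4.69. EXPA1 had levels of -0.73, -1.45 and 0.90 at DAE28 and of 5.38, 5.68 and 5.44 at DAE14, and EXPA11 had -4.17, -2.77 and -1.34 at DAE28 and 2.80, 2.91 and 2.83 at DAE14. EXLB1 did not pass, at 0.31 ± 0.16, and rose under median centring. Of 20 XTH genes, whose enzymes cut and rejoin xyloglucan, 3 rose and 12 fell, with a median of -1.92 (-0.81 under normexp). XTH6 had levels of -4.15, -4.75 and -3.87 at DAE28 and of 3.19, 3.14 and 2.84 at DAE14, XTH4 fell by 6.99 ± 0.54, and XTH24 rose by 1.7 ± 0.39. Fasciclin-like arabinogalactan genes fell in 13 of 15 cases and rose in 2, with a median of -4.82; FLA8 fell by 6.60 ± 0.42. Among 28 arabinogalactan genes 5 rose and 18 fell, with a median of -1.84 (-0.87 under normexp), AGP4 at -6.89 ± 0.33 and AGP2 at 4.58 ± 0.35.

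All 11 cellulose synthesis genes fell, with a median of -1.7. CESA2, of primary walls, and CESA4, of secondary walls, fell by 2.49 ± 0.19 and 3.62 ± 0.65. Of 14 tubulin genes 13 fell and 0 rose, with a median of -1.47; TUB5 had levels of -1.96, -1.64 and -0.99 at DAE28 and of 2.19, 2.22 and 2.19 at DAE14. Of 17 aquaporin genes 16 fell and 0 rose, with a median of -1.84. DELTA-TIP, of the tonoplast, had levels of -1.28, -0.70 and 0.85 at DAE28 and of 6.81, 7.17 and 6.92 at DAE14, and PIP1;5, of the plasma membrane, fell by 3.07 ± 0.25. Of 14 cell cycle and DNA replication genes 13 fell and 0 rose, with a median of -2.60, including PCNA1, the replication clamp (-3.59 ± 0.28), and MCM3, of the replicative helicase (-3.30 ± 0.24; under normexp -1.07, limma adjusted p = 0.068). Most of these last genes were dim at both stages, and after normexp 8 fell and the median was -1.1; the expansin and fasciclin-like medians became -2.22 and -2.68.

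Glucosinolate genes changed unevenly. Of 23 genes 3 rose and 15 fell, with a median of -0.59, and 9 fell under quantile normalization. Hydrolysis accounted for the largest values: besides TGG2, the myrosinase TGG1 had levels of -0.34, -0.15 and 0.14 at DAE28 and of 5.77, 5.81 and 6.09 at DAE14. NSP5, a nitrile specifier that steers the products of hydrolysis, went the other way, with 6.68, 7.16 and 7.40 at DAE28 and 4.53, 4.6 and 4.40 at DAE14. ESP, an epithiospecifier with a related function, fell by 2.61 ± 0.20. Of 14 clock genes 5 rose and 3 fell, with a median of 0.10, while 35.7% of all genes tested rose and 36.3% fell. All samples were taken at one time of day, so a change of level and a shift of phase cannot be told apart. PRR3 and ELF4, of the evening part of the clock, rose by 2.5 ± 0.32 and 1.92 ± 0.33, and CCA1, the morning component, had levels of 0.79, 0.99 and 0.78 at DAE28 and of 1.89, 1.21 and 1.57 at DAE14. The fall of CCA1 by 0.70 ± 0.20 was lost with slide as a block (-0.76, limma adjusted p = 0.059).

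Large enzyme and transporter families showed both directions, as did all genes tested, of which 35.7% rose and 36.3% fell. Of 145 cytochrome P450 genes 59 rose and 51 fell, with a median of 0.32, CYP91A2 at 6.01 ± 0.32 and BR6OX2, of brassinosteroid synthesis, at -4.41 ± 0.36. Of 57 UDP-glycosyltransferases 31 rose and 13 fell (20 rose with slide as a block), with a median of 0.85, UGT76D1 at 4.40 ± 0.56 and UGT76C2, which glucosylates cytokinins, at -2.70 ± 0.29. Of 32 ABCG transporters 13 rose and 10 fell (7 rose under normexp), with a median of 0.42 and ABCG40, an importer of abscisic acid, at 5.10 ± 0.49. Of 13 calmodulin-like genes 6 rose and 1 fell, with a median of 0.48 and CML41 at 6.37 ± 0.71.

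The DAE28 arrays differed more among themselves than the DAE14 arrays. The 3 DAE14 arrays shared 1 slide and 1 scan day and the DAE28 arrays spanned 2 of each, so age and slide cannot be told apart in this spread. The median SD over 3 arrays was 0.218 at DAE28 and 0.133 at DAE14, the SD was larger at DAE28 in 70.0% of genes, and it was over 1 in 748 genes at DAE28 and in 306 at DAE14. Among genes above background on all 6 arrays with a symbol, TT4 had the widest spread. TT4, the chalcone synthase that opens flavonoid synthesis, had levels of -2.39, 1.87 and 3.68 at DAE28 and of 1.06, 1.28 and 0.79 at DAE14. The DAE28 arrays lay on both sides of the DAE14 arrays, and the change of 0.01 ± 1.44 did not pass (limma adjusted p = 0.996). ASPGB1, an asparaginase, had -2.05, 2.58 and 2.83 at DAE28 and -3.39, -3.70 and -3.52 at DAE14. FBA5, a fructose-bisphosphate aldolase, had -2.21, 0.76 and 2.04 at DAE28 and 6.35, 6.36 and 6.36 at DAE14. XTH31 had -6.70, -5.37 and -1.58 at DAE28 and 3.60, 1.84 and 2.62 at DAE14.

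In these genes DAE28 replicate 1 was always the lowest. FLA15 showed the same order, with -6.55, -3.00 and -2.54 at DAE28 and -1.60, -2.13 and -1.82 at DAE14. Its fall of 2.18 ± 0.84 (limma adjusted p = 0.037) shrank to 0.92 without DAE28 replicate 1, where it still passed, and was lost without any 1 of the 3 DAE14 arrays. Replicate 1 was also the array on slide 1, and slide and sample cannot be told apart here. Over all genes, replicate 1 lay more than 2 log2 units from the mean of the other 2 aged arrays in 252 genes, replicate 2 in 84 and replicate 3 in 234.

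TT4 belongs to the flavonoid genes, whose 3 aged arrays also lay apart. Of 13 measured genes of anthocyanin and flavonoid synthesis 7 rose and 1 fell, with a median of 2.91, but the medians for the single DAE28 arrays were 0.86, 3.26 and 4.61. PAP1 had levels of 2.93, 3.55 and 4.13 at DAE28 and of -3.01, -2.98 and -3.16 at DAE14. PAP2, a related activator named here after its values were seen, had -2.90, -0.72 and 0.46 at DAE28 and was not well above background at DAE14, a rise of at least 30.2-fold. DFR, the reductase at the start of anthocyanin synthesis and also chosen after its values were seen, had -1.78, 2.64 and 3.98 at DAE28, at least 192-fold over DAE14. PAP1, PAP2 and DFR thus exceeded DAE14 in all 3 aged samples, replicate 1 by the least, whereas TT4 exceeded it in replicates 2 and 3 only. FLS1, which makes flavonols, fell, with -6.61, -6.08 and -3.69 at DAE28 against -2.21, -1.92 and -1.96 at DAE14. With slide as a block the list median was 0.86, which rests on replicate 1 alone.

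**Figure D5:**
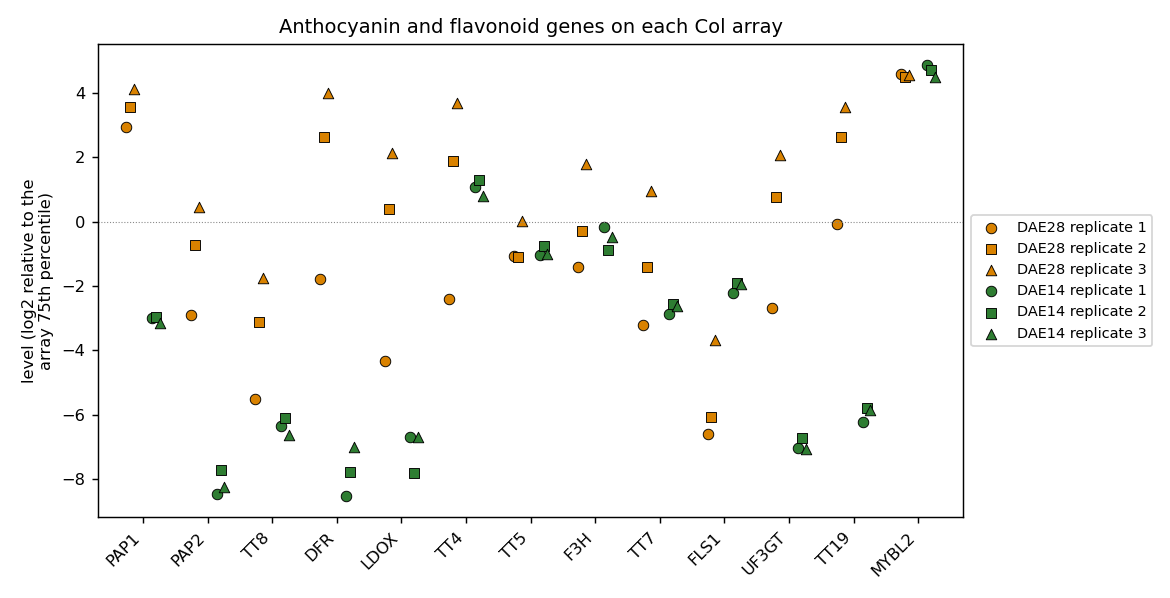
Levels of the 13 measured anthocyanin and flavonoid genes on each Col array (vertical axis, log2 relative to the array 75th percentile; symbols, replicates; colours, stages). PAP1 is above its DAE14 arrays in all 3 DAE28 samples, the DAE28 samples of TT4 lie on both sides of DAE14, and replicate 1 is the lowest DAE28 sample for TT4, DFR and FLS1.

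Markers of cell types were read beside these results. The 4 mesophyll markers were all measured and well above background on all 6 arrays, and all fell (median -1.86; 2 fell under quantile normalization, with a median of -0.13). The 4 xylem markers fell, with a median of -5.30 (-2.35 under normexp); IRX1, a secondary wall cellulose synthase chosen after its values were seen, had levels of -9.40, -7.45 and -6.87 at DAE28 and of -2.13, -2.09 and -1.75 at DAE14. Of 4 phloem markers 2 fell: SEOR1, a sieve element protein, by 4.35 ± 0.26, and SUC2. All 3 epidermis and trichome markers fell, with a median of -1.33 (1 fell under normexp, with a median of -0.45), ATML1, the regulator of epidermal identity, by 2.53 ± 0.12. Of 5 guard cell markers 1 rose and 1 fell, KAT1, a potassium channel, by 1.21 ± 0.25 and MYB60 by -0.96 ± 0.25. None of the 2 root hair and 5 seed storage genes and 3 of 6 flower and meristem genes were kept by the filter on dim probes. These 3 flower and meristem genes had a median of -0.38, and 2 of them did not pass. The other, PI, a floral organ factor chosen after its values were seen, rose by 2.43 ± 0.50. Its DAE28 levels were -3.02, -3.73 and -3.54, with 1 of 3 DAE14 spots well above background. The part of a changed cell makeup in the gene list results was not tested.

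The age change in Col was then set against that in gvs1-1 by the interaction in the same fit. It was higher in Col for 1674 genes (8.74%) and lower in Col for 1898 (9.91%). Of the 3400 genes that rose at least 2-fold in Col, 1174 had a more positive change in Col than in gvs1-1, and of the 4323 that fell at least 2-fold, 1331 had a more negative one. The counts over all genes, 1674 and 1898, rest on arrays that lay on different slides. They were 283 and 761 when slide was a block and 221 and 676 when scan day was. Without Col DAE14 replicate 1 they were 945 and 980, and without Col DAE14 replicate 3 they were 998 and 1020. Without Col DAE28 replicate 2 the second was 1227. With slide or scan day as a block, the difference rests on replicate 1 alone for Col DAE28 and on replicate 3 alone for gvs1-1 DAE14. The part of this loss of replicates in the lower counts was not tested. The list members that passed were 14 of 15 in the Calvin cycle (13 with slide as a block, 7 under quantile normalization) and 16 of 21 in the antenna (15 and 5). They were 12 of 17 in autophagy (2 with slide as a block), 9 of 19 in the senescence NAC list (1), 13 of 21 in the auxin list (3), 1 of 14 in expansins (1) and 0 of 14 in the cell cycle list (1).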

How the data were processed

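RNA of Arabidopsis leaves was hybridised to Agilent arrays, 1 sample per array in Cy3. Per the file headers, spot intensity values were made with Agilent Feature Extraction 11.5.1.1 (11.5 in the submitters' processing notes), which subtracts background before deposit. The authors also deposited a table of log2 values for 21266 loci, of unstated scaling (column medians 8.86 to 8.91); it served as an alternative.

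Levels are log2 of the processed signal minus the 75th percentile of the array. Control spots and 166 probes with outlier marks were left out. Of 43603 probes, 34348 matched 25410 loci of the TAIR10.1 table, and 9255 were not matched to exactly 1 locus. A probe was kept if well above background on every array of a group, and 26801 probes of 19152 genes remained. For 288 genes the probe that stood for the gene was kept through gvs1-1 only. The probe with the highest mean stood for a gene, and 5874 genes had several. limma 3.58.1 in R 4.3.3 (lmFit, eBayes; 4 group means over 12 arrays) tested two-sided contrasts, adjusted by Benjamini-Hochberg over all genes; the code was tested on simulated data. "At least" folds set the brighter stage's mean against the higher of the dimmer stage's signal and its detection limit.

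Of 654 list entries 645 matched by name and locus and 616 were measured. Named genes are a fixed panel, the genes with the largest changes, bounds and spread, and the most changed members of each list measured at both stages. The members and lists were chosen with earlier results of these data known. Slide, scan day, scaling, background, filter and left-out arrays were varied. The number of arrays limits the precision. Promoters and sequences were not used here.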

Additional observations from a re-analysis of the deposited data

Results flagged for a closer look

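For the genes of the fixed panel, the age change in Col was tested against that in gvs1-1, and 5 of them differed between the genotypes by the interaction in the limma fit. The change was higher in Col by 8.09 for SAG12, by 1.62 for NAP and by 1.75 for NYE1, and the values for RBCS1A and CAB1 were -1.15 and -0.97, that is, more negative in Col. Over all genes 1674 had a higher and 1898 a lower age change in Col.

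With slide as a block the difference was 8.40 for SAG12 (limma adjusted p = 0.10), 1.37 for NAP (0.11), 2.12 for NYE1 (0.013), -1.02 for RBCS1A (0.037) and -0.67 for CAB1 (0.25). Under quantile normalization it was -0.24 for RBCS1A (0.23) and -0.07 for CAB1 (0.75). With the slide block these differences rest on replicate 1 alone for Col DAE28 and on replicate 3 alone for gvs1-1 DAE14. SAG12 was below background in Col at DAE14, so its value is no measured fold. Groups of 3 arrays are too small for a test of single outlying samples.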

How the results depend on the processing

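Of 178 named genes, 157 kept their direction and their side of the threshold in every setting in which they were followed. The 21 settings tried include the main one and limma treat, a test against 2-fold, in which the age changes of these genes were not followed. A gene that a filter dropped was not followed in that setting either. TT4, not called over all arrays, was at -0.030 under normexp, at -3.43 on slide 1 alone, where it passed (limma adjusted p = 0.0010), at -3.43 on scan day 1 alone and when slide was a block, at -1.78 when scan day was one, and between -1.30 and 1.73 when 1 Col array was left out. CAB1 was at 0.0072 under quantile normalization. Genes that fell numbered 10893 with no filter on dim probes. Those that fell at least 2-fold were 8285 without the filter and 2758 after normexp, and 2005 rose by a test against 2-fold (limma treat). Genes below background at DAE28 were 351 when 2 of 3 arrays sufficed. Age changes higher and lower in Col than in gvs1-1 numbered 1085 and 627 after normexp, 283 and 761 when slide was a block, 221 and 676 when scan day was one, and 371 and 1118 on scan day 1 alone; median centring gave 1124 lower. Leaving out 1 Col array gave 945 to 2211 higher and 980 to 2708 lower. With slide or scan day as a block, and on scan day 1 alone, the comparison with gvs1-1 rests on single arrays in 2 groups. These are Col DAE28 replicate 1 and gvs1-1 DAE14 replicate 3. The causes were not tested. The share of called genes that were higher was 49.6%, and 38.3% without the filter. Quantile normalization and median centring put the median of all genes at 0.12 and 0.19, against 0.01. Replicate numbers did not pair the samples (correlations of deviations -0.02, 0.08 and 0.06); with the replicate block 6736 genes rose and 6850 fell, and FLA15 was lost (limma adjusted p = 0.051). The settings on slide 1 or scan day 1 alone, and normexp on the median signal, were chosen after seeing the data. Slide 1 holds 1 DAE28 array, assumed there to vary like the other groups. Dim probes limit the size of the falls.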

Other observations

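Genes encoded in the organelles are in the authors' deposited table, which was tested with the same limma design, an alternative chosen after seeing the data. Of 56 plastid loci 3 rose and 49 fell with age in Col (5.36% and 87.5%), with a median of -1.56, and the medians for the single DAE28 arrays were -1.76, -1.53 and -1.27. Of the mitochondrial loci that the authors' deposited table holds, 44 in all, 16 rose and 8 fell, with a median of 0.07. Over its 21166 nuclear loci 37.2% rose and 31.6% fell, with a median of 0.06. In the authors' deposited table the plastid loci ATCG00190 and ATCG00170 fell by 2.92 ± 0.14 and 2.69 ± 0.30, and ATCG00270 and ATCG00280 were at 0.42 ± 0.09 and 0.33 ± 0.13. The cause was not tested, and how plastid transcripts without a poly(A) tail were labelled is not given in the sources.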
